A study of Mus musculus with 5 samples.

Results

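The nuclear pore and nuclear transport genes of cultured mouse epidermal stem cells were followed between Angptl4 knockout (KO) and wild-type (WT) cells. The members are set by a list of gene symbols, which uses no measured value but was drawn up with earlier results of these data known: the numbered Nup, Ipo, Kpna and Xpo genes, Kpnb1, and 13 further genes of the pore and the Ran cycle (Tpr, Ranbp2, Pom121, Ndc1, Aaas, Seh1l, Sec13, Rae1, Rangap1, Rcc1, Ran, Cse1l and Tnpo1). This rule found 53 of the 17657 protein-coding genes in the deposited table, and 51 of them had enough counts to be tested. Kpna7 and Nup62cl did not, with at most 0.05 and 0.35 TPM in any library.

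The study compared gene expression in these cells to examine how Angptl4, a secreted angiopoietin-like protein that inhibits lipoprotein lipase, acts on their proliferation. RNA-seq was made from 3 WT libraries (WT1 to WT3) and 2 Angptl4 KO libraries (KO1 and KO2). All 5 came from male C57BL/6 mice, labelled 8 weeks, whose skin epidermal stem cells were grown in KGM2, a keratinocyte growth medium. The labels do not give the knockout allele or its driver, or say whether each library is its own mouse or culture, so p-values measure the spread between these libraries, which may be technical.

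Nuclear pore complexes are ring-shaped channels through the nuclear envelope, built from nucleoporins in many copies. An outer Y-shaped complex and an inner ring form the scaffold, membrane proteins hold it in the envelope, and flexible phenylalanine-glycine repeat proteins fill the channel. Importins and exportins carry proteins and RNA through it. The small GTPase Ran, which is loaded with GTP in the nucleus and hydrolyses it in the cytoplasm, sets the direction of each trip. In epidermis, basal keratinocytes that divide must break down and rebuild these pores at each mitosis.

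The libraries held 20283084 to 20773407 expected counts each. Angptl4 itself was at 7.34, 6.09 and 4.34 TPM in WT and at 0.86 and 1.11 TPM in KO, so both KO libraries lay below all WT libraries (log2 change -2.56 ± 0.32 (SE), adjusted p = 0.00458). TPM, a level of transcripts relative to all transcripts, is scaled by transcript length within each library. The KO libraries differed from each other much more than the WT libraries did, with a biological coefficient of variation over genes of 28.8% in KO and 5.22% in WT. Of 8 basal keratinocyte markers, which summed to 34793 to 35998 TPM in WT and to 45116 and 35597 TPM in KO (mostly Krt5 and Krt14), Trp63 and Itga6 fell, Krt15, Itgb4 and Dst rose, and 3 did not pass. Of 8 suprabasal markers, Krt1, Krt10 and Dsg1a rose and 5 did not pass. The 8 summed to 898 to 1175 TPM in WT and to 1256 and 1645 TPM in KO. Most of that sum was Sbsn, which did not pass. It was at 917, 1102 and 848 TPM in WT and at 937 and 1559 TPM in KO. Krt1 was at 5.99, 10.5 and 7.15 TPM in WT and at 267 and 29.7 TPM in KO. Summed markers of pericytes and smooth muscle were 228 to 264 TPM in WT and 1644 and 561 TPM in KO, mostly Acta2 with Rgs5, Myh11 and Des at most 0.3 TPM in any library, and 3 of the 4 tested of 7 higher in KO. Fibroblast markers summed to 41 to 45 TPM in WT and to 115 and 54.7 TPM in KO, with 4 of the 8 tested of 10 higher. Most of that sum was Fbln1, which did not pass. It was at 39.8, 39.6 and 39.2 TPM in WT and at 71.1 and 38.8 TPM in KO. Beside these counts of markers, 20.4% of all tested genes fell and 20.4% rose. The part of these markers in the results on the members was not tested.

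Genes of the pore and of the transport cycle were broadly lower in KO. Of the 51 tested members 40 fell, 1 rose and 10 did not pass the test (edgeR's quasi-likelihood test, adjusted p under 0.05 over all 12957 tested genes). Among all tested genes 20.4% fell and 20.4% rose, whereas 78.4% of the tested members fell. Their median log2 change was -0.62, beside 0.02 over all tested genes. In 45 of the 51, both KO libraries lay below all 3 WT libraries in TPM, which was so for 35.5% of all tested genes. Of the 40 that fell, 12 fell by at least 2-fold, a size of fall that 5.12% of all tested genes had. Because most members are abundant, the 8162 genes with a mean of at least 10 TPM make a closer background: 26.1% of them fell, with a median log2 change of -0.07, beside 39 of the 49 members at that level. The summed TPM of all members was 4184, 4086 and 4250 in WT and 2602 and 2569 in KO, 62.0% of the WT mean. In such bulk samples, fewer cells of a type that holds much of this RNA and less of it per cell cannot be told apart.

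**Figure D1:**
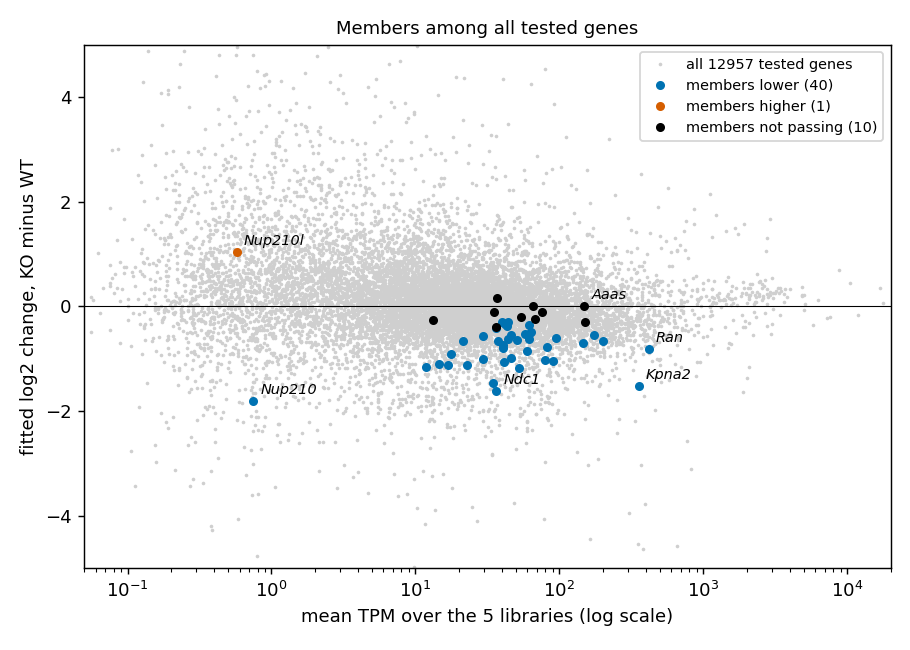
Mean TPM over the 5 libraries (x axis, log scale) against the fitted log2 change of KO against WT (y axis) for all 12957 tested genes (grey, 35 of them outside the axes) and for the 51 tested members. The 40 members that fell lie below 0 at levels from about that of Nup210 to that of Ran, and Nup210l is the 1 member that rose.

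How firmly a member was called lower depended on which libraries entered the fit. With WT1, WT2 or WT3 left out, 25, 29 and 28 members fell, beside 7.6%, 8.94% and 8.77% of all tested genes. Without KO1 or KO2 the counts were 44 and 45, beside 30.5% and 30.9% of all tested genes. With 1 KO library left, that library is assumed to vary like the WT libraries. With a separate spread for each group in limma-voom, 36 members fell, beside 15.1% of all tested genes. The same 25 members, 49% of those tested, fell in the fit of all 5 libraries and with any 1 library left out, as did 7.36% of all tested genes. Of the other 15, each missed the threshold with at least 1 WT library left out.

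**Figure D2:**
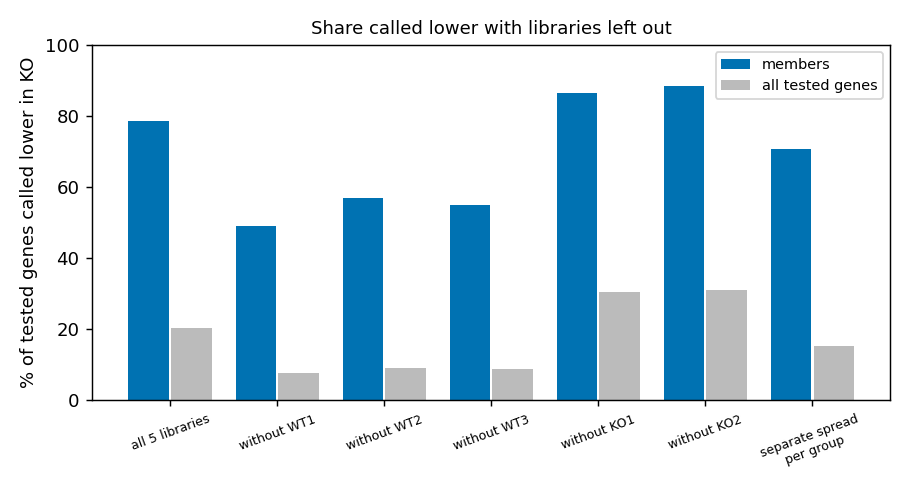
Percent of tested genes called lower in KO (y axis) among the members (blue bars) and among all tested genes (grey bars), for the fit of all 5 libraries, with each library left out, and with a separate spread per group. The members' share falls from 78.4% with all libraries to 49% without WT1, where that of all tested genes is 7.6%.

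Both the scaffold and the carriers were lower, with medians that varied by role. Among 27 structural nucleoporins 22 fell, with a median log2 change of -0.62 and a summed TPM at 68.4% of the WT mean. Among 24 Ran cycle genes and transport receptors, 23 of them tested, 18 fell, with a median of -0.63 and a summed TPM at 58.3% of WT. Membrane anchors had the lowest median log2 change (-1.61, 3 genes), followed by the Y complex (-1.09, 8 genes). The cytoplasmic face had the one nearest to 0 (-0.30, 5 genes). Differences between roles were not tested.

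**Figure D3:**
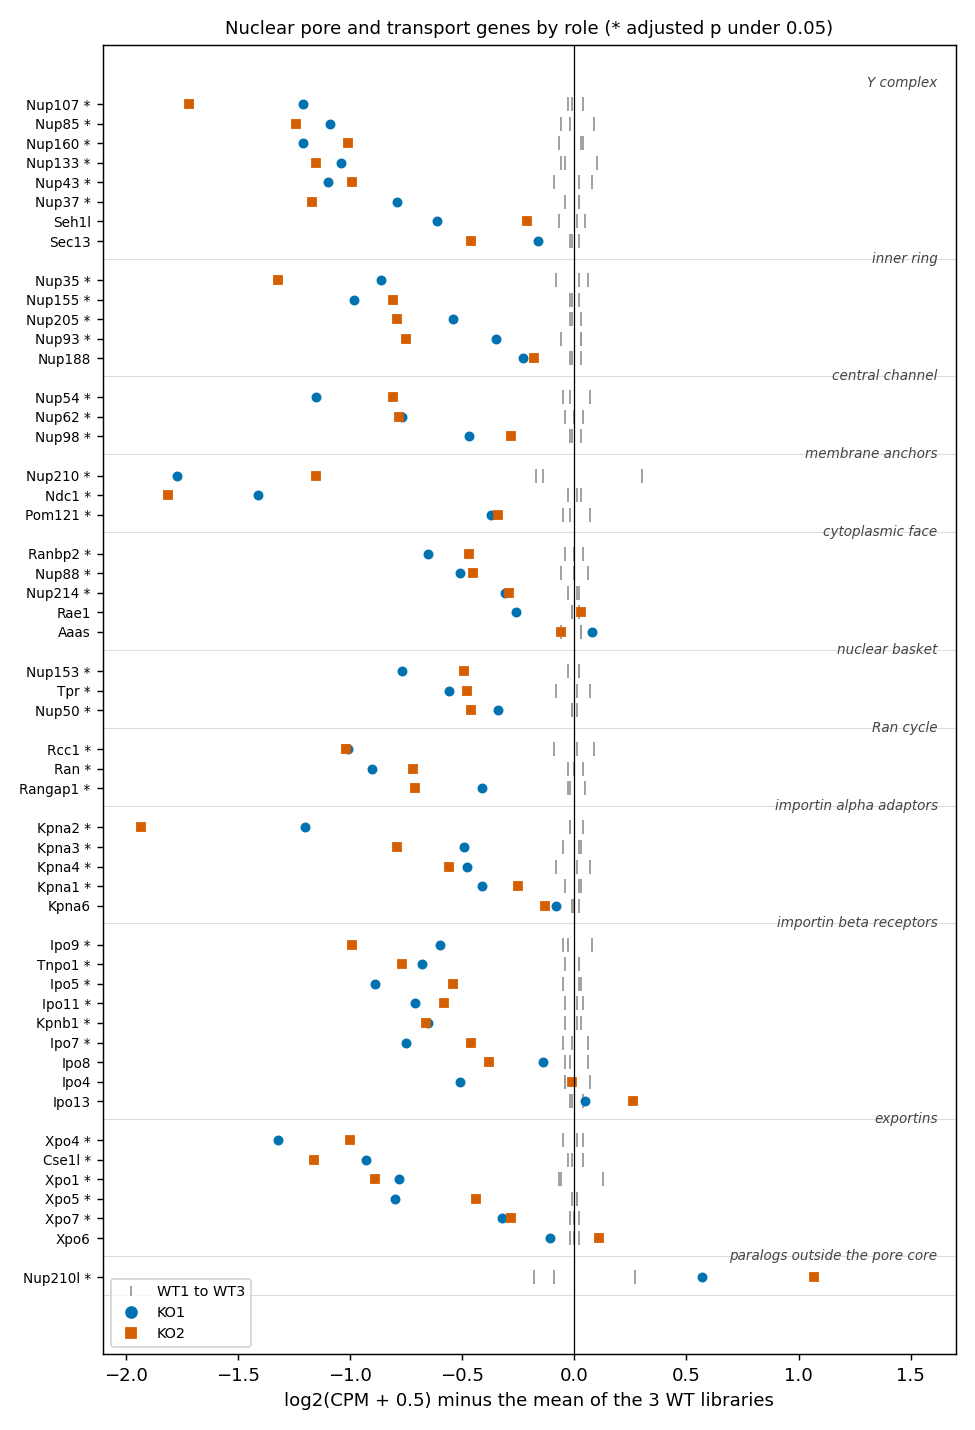
Each tested member by role (rows), with the difference of each library from the mean of the 3 WT libraries in log2(CPM + 0.5) on the x axis. Grey ticks are WT libraries, circles KO1 and squares KO2, and a star marks an adjusted p under 0.05. The KO points of the Y complex, Ran cycle and most carriers lie left of the WT ticks, while those of Aaas, Xpo6 and Rae1 fall among or around them.

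Because the members moved together, their promoters were compared for short motifs. RefSeq promoter windows (GRCm38.p6, 250 bases before to 50 after a start) were matched for 42 of 53 members, giving 48 windows, and for 10357 of the tested genes, giving 13236 windows. Motifs were searched on both strands. The cell cycle homology region or CHR (TTTGAA or TTCGAA), bound by the DREAM complex that represses cell cycle genes, was in 29.2% of the members' windows and 14.2% of those of all tested genes. A site of NRF1 (GCATGCGC), an activator of many housekeeping genes, was in 12.5% and 4.93%, and the CCAAT box (CCAAT), bound by NF-Y, in 47.9% and 37.8%. The MYC E-box (CACGTG) was in 14.6% and 9.78%, and E2F sites (TTTCCCGC, TTTGGCGC or TTTCGCGC) in 4.17% and 3.29%. In the 38 windows of members that fell and the 10 of the other members, the CHR was in 28.9% and 30%, the NRF1 site in 15.8% and 0%, the CCAAT box in 52.6% and 30%, the E-box in 13.2% and 20% and E2F sites in 5.26% and 0%. These shares rest on few windows, and their differences were not tested. For comparison, 25 proliferation markers (cell cycle and replication genes such as Top2a and Mcm2) had the CHR in 59.1% and the CCAAT box in 90.9% of 22 windows. In the same windows E2F sites were in 22.7%, the E-box in 4.55% and the NRF1 site in 0%. A match is a description of these letters, not evidence of binding.

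The 250 bases before the RefSeq start of 4 members that fell are shown because they hold these matches and overlap no gene of the table. They were chosen after their values were seen. Capitals mark matches to the CHR, CCAAT and NRF1 motifs, and each is written 5′ to 3′ on the gene's strand. MYC E-box matches are not marked, though the bases of Ipo7 and of Ran each hold 1. Kpna2 (chr11:106999526-106999775, minus strand) has a CHR match 35 bases and a CCAAT match 25 bases before the start. Ipo7 (chr7:110018065-110018314, plus strand) has a CHR match 178 bases before it. Ran (chr5:129019906-129020155, plus strand) has NRF1 matches on both strands, overlapping, 205 and 203 bases before it. Nup50 (chr15:84923178-84923427, plus strand) has such a pair 167 and 165 bases and another 105 and 103 bases before it, and CCAAT matches at 205 and 38 bases.
Kpna2: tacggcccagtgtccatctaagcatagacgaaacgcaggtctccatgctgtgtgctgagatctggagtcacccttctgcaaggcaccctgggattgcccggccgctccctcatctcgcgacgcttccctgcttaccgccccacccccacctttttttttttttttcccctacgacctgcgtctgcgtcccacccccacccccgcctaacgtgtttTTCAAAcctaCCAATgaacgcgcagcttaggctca
Ipo7: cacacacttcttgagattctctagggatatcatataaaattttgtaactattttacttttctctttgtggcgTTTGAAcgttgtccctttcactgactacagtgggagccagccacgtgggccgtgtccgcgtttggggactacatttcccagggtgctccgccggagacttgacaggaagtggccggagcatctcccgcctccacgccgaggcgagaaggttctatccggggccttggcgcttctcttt
Ran: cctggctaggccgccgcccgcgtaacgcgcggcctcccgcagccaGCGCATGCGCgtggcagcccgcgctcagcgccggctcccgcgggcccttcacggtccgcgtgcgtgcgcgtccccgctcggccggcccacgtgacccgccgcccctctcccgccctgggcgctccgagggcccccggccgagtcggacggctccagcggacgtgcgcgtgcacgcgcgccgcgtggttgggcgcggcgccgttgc
Nup50: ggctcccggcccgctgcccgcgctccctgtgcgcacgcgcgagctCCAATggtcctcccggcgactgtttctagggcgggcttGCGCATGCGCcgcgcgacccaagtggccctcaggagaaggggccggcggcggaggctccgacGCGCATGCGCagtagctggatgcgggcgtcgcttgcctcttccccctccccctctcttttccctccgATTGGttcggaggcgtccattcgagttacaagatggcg
The Kpna2 matches lie side by side close to the start. Each overlapping NRF1 pair of Ran and Nup50 is the motif and its reverse complement on the same bases. That these pairs spell the same letters therefore follows from the motif searched.

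The Y complex, the scaffold of the outer rings that also binds kinetochores in mitosis, fell in 6 of its 8 genes, 5 of them by at least 2-fold. Its summed TPM in KO was 59.4% of WT. Nup107, a stem subunit of the complex (chromosome 10, 117750621 to 117792736 in GRCm38.p6), was at 46.1, 45.6 and 47.9 TPM in WT and at 19.6 and 13.7 TPM in KO. Both KO libraries were under 20 TPM while no WT library was under 45 TPM, a log2 change of -1.46 ± 0.16 (adjusted p = 0.00377). Nup85, in the arms of the Y, was at 67.0, 65.4 and 72.3 TPM in WT and 31.2 and 28.1 TPM in KO (-1.18 ± 0.09, adjusted p = 0.00196). Nup133, at the base of the stem, was at 20.8, 20.5 and 22.9 TPM in WT and at 10.1 and 9.48 TPM in KO (-1.11 ± 0.09, adjusted p = 0.00217). For these 3 genes the groups stood far apart and the spread within WT was small. Nup160, an arm subunit, was at 30.2, 28.1 and 30.3 TPM in WT and at 12.2 and 14.2 TPM in KO (-1.12 ± 0.09, adjusted p = 0.00232). Nup43 also fell, by 1.07 on the log2 scale, and Nup37 fell from 37.7, 35.9 and 37.5 TPM in WT to 20.7 and 15.9 TPM in KO (adjusted p = 0.00619). All 6 calls held with any library left out.

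The other Y complex genes have uses beyond the pore. Sec13, which also forms the outer coat of secretory vesicles leaving the endoplasmic reticulum, was the most abundant of the 8, at 163, 163 and 167 TPM in WT and 145 and 118 TPM in KO. Its log2 change of -0.30 had a 95% interval of -0.56 to -0.04 (adjusted p = 0.0687). Seh1l, which also serves in a complex that controls mTORC1, had a log2 change of -0.40 with an interval of -0.74 to -0.07 (adjusted p = 0.0606). Both KO libraries lay below all WT libraries for each gene, yet neither passed. Of 16 alternatives, Seh1l passed in 6 and Sec13 in 2. Without KO1 or KO2 both passed, at adjusted p = 0.000223 and 0.0412 for Sec13 and 0.0232 and 0.000229 for Seh1l (range over all alternatives 0.000223 to 0.226 for Sec13 and 0.000229 to 0.183 for Seh1l).

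The inner ring, which lines the channel and anchors its repeat proteins, fell in 4 of 5 genes, with a median log2 change of -0.66. Nup155 was at 22.3, 21.9 and 21.6 TPM in WT and 10.8 and 12.3 TPM in KO (-0.90 ± 0.08, adjusted p = 0.00253). Nup205, a large scaffold subunit, was at 44.1, 42.5 and 44.3 TPM in WT and at 30.6 and 26.3 TPM in KO (-0.66 ± 0.10, adjusted p = 0.00633). Nup35, which binds membrane, was at 19.5, 17.6 and 18.8 TPM in WT and at 9.92 and 7.12 TPM in KO (-1.11 ± 0.16, adjusted p = 0.00673). None of these 3 genes had overlapping groups. Nup188, a paralog of Nup205, was the tested member just outside the threshold, at 56.7, 57.3 and 58.5 TPM in WT and 48.4 and 50 TPM in KO. Its log2 change was -0.20 with an interval of -0.37 to -0.04 (adjusted p = 0.0584), and -0.19 and -0.22 without KO1 or KO2. It passed with DESeq2 (adjusted p = 0.0299) and with limma on log2 TPM (0.0351 to 0.0405). In the other alternatives that kept both KO libraries it missed the threshold, at up to 0.398. Nup93, which links the ring to the channel, fell by 0.54 (adjusted p = 0.0245). It did not pass without WT1, WT2 or WT3 (0.093, 0.0736 and 0.0897, range over all alternatives 6.1e-05 to 0.093).

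All 3 central channel genes, whose repeats form the barrier that receptors pass through, were lower. Nup62 was at 96.3, 99.2 and 101 TPM in WT and at 57.0 and 56.6 TPM in KO (-0.78 ± 0.07, adjusted p = 0.00253). Nup54, its partner in the channel, was at 57.2, 56.2 and 60.6 TPM in WT and at 25.3 and 32.5 TPM in KO (-0.99 ± 0.12, adjusted p = 0.00426). Nup98, a repeat protein found on both faces of the pore, was at 47.3, 47.4 and 48.6 TPM in WT and at 33.9 and 38.4 TPM in KO (-0.37 ± 0.08, adjusted p = 0.021). No KO library reached the WT range for any of the 3. Nup98 missed the threshold without WT1, WT2 or WT3 (0.0862, 0.0836 and 0.0889, range over all alternatives 0.000219 to 0.162).

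Of the 3 membrane anchors, all of which fell, Ndc1 carried most of the change in level. Ndc1, a multipass membrane protein needed for pore assembly (chromosome 4, 107367784 to 107416346), was at 51.1, 47.4 and 51.5 TPM in WT and at 17.7 and 13.6 TPM in KO. Every WT library held over 2-fold the level of either KO library, and the fitted fall was 3.06-fold (-1.61 ± 0.13, adjusted p = 0.00232). Nup210, a glycoprotein anchor known mainly from differentiating muscle and neural cells, was scarce, with 67, 69 and 97 expected counts in WT and 15 and 29 in KO (-1.81 ± 0.37, adjusted p = 0.0156). Pom121, which anchors the ring and takes part in early assembly, was at 66.5, 66.0 and 71.0 TPM in WT and at 51.5 and 52.9 TPM in KO (-0.36 ± 0.07, adjusted p = 0.0163). Nup210 and Pom121 did not overlap between groups either, but neither passed with a WT library left out. For Nup210 the adjusted p was then 0.0555, 0.054 and 0.0591 (range over all alternatives 0.000192 to 0.0631), and for Pom121 0.0771, 0.0641 and 0.0763 (0.000474 to 0.194).

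On the cytoplasmic face, where messenger RNA leaves the pore and receptors are released, 3 of 5 genes fell, and the summed TPM in KO was 87.5% of WT. Nup88 was at 75.5, 69.4 and 72 TPM in WT and at 49.8 and 51.9 TPM in KO (-0.48 ± 0.07, adjusted p = 0.00676). Ranbp2, the giant filament protein and SUMO ligase that holds Rangap1 at the pore, was at 33.7, 33.1 and 34.7 TPM in WT and at 21.1 and 24.1 TPM in KO (-0.56 ± 0.08, adjusted p = 0.00695). Nup214, the partner of Nup88, was at 44.5, 42.7 and 41.2 TPM in WT and at 35.3 and 35.9 TPM in KO (-0.30 ± 0.06, adjusted p = 0.0171). It did not pass in the fits that left out WT1, WT2 or WT3 (0.0897, 0.0724 and 0.0826, range over all alternatives 0.00115 to 0.204). Aaas, the gene of the pore protein ALADIN, was the most abundant of the 5, with KO1 above and KO2 below all WT libraries. It was at 152, 144 and 153 TPM in WT and 156 and 141 TPM in KO. Its log2 change was 0.01 with an interval of -0.19 to 0.21, a span that does not include a change of the median member's size, and its sign differed between fits. Rae1, a messenger RNA export factor that binds Nup98, had a log2 change of -0.11 with an interval of -0.36 to 0.15, and its sign turned without KO1. It passed without KO2 (adjusted p = 0.00764, range over all alternatives 0.00764 to 0.745).

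The nuclear basket, the filamentous structure that faces chromatin, fell in all 3 of its genes, with a median log2 change of -0.52. Tpr, the coiled-coil backbone of the basket, was at 70.4, 66.6 and 73.5 TPM in WT and at 46.8 and 49.4 TPM in KO (-0.52 ± 0.08, adjusted p = 0.00784). Nup153, which ties the basket to the ring and to the lamina, was at 52.2, 50.6 and 52.3 TPM in WT and at 29.8 and 36.4 TPM in KO (-0.62 ± 0.10, adjusted p = 0.00895). Nup50, a mobile factor that helps to release importin alpha cargo, was at 40.7, 40.5 and 40.2 TPM in WT and at 31.3 and 28.9 TPM in KO (-0.41 ± 0.07, adjusted p = 0.00967). All KO values were below all WT values, but without WT1 none of the 3 passed. The adjusted p was then 0.0523 for Tpr, 0.0516 for Nup153 and 0.0588 for Nup50, and Nup50 also missed the threshold without WT2 and WT3 (0.053 and 0.0526). Over all alternatives the adjusted p ranged from 8.97e-07 to 0.108 for Tpr, from 8.36e-06 to 0.0671 for Nup153 and from 0.000207 to 0.107 for Nup50.

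The Ran cycle fell in all of its 3 genes, with a summed TPM at 58.1% of WT. Ran, the GTPase that drives the cycle (chromosome 5, 129020156 to 129024322), was the most abundant of all members, at 505, 497 and 519 TPM in WT and at 267 and 304 TPM in KO (-0.81 ± 0.09, adjusted p = 0.00409). Rcc1, the chromatin-bound exchange factor that loads Ran with GTP, was at 92.8, 100 and 105 TPM in WT and at 48.4 and 48.3 TPM in KO (-1.02 ± 0.08, adjusted p = 0.00217). Rangap1, which triggers GTP hydrolysis by Ran in the cytoplasm, was at 199, 197 and 208 TPM in WT and at 149 and 122 TPM in KO (-0.55 ± 0.11, adjusted p = 0.0157). The nuclear loader, the GTPase and its cytoplasmic activator were thus each lower in both KO libraries than in any WT library. The calls of Ran and Rcc1 held with any library left out, and Rangap1 did not pass once WT1, WT2 or WT3 was removed (0.0706, 0.0637 and 0.0716, range over all alternatives 4.45e-05 to 0.105).

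Importin alpha adaptors recognise the classical nuclear localisation signal and join cargo to importin beta, and 4 of the 5 tested fell. Kpna2 (chromosome 11, 106988629 to 106999525) was the most abundant adaptor in WT, at 477, 478 and 495 TPM, and was at 207 and 125 TPM in KO. KO2 held less than KO1, and the fitted fall was 2.87-fold (-1.52 ± 0.23, adjusted p = 0.00675). The other adaptors fell less: Kpna4 was at 68.8, 62.4 and 66.2 TPM in WT and at 46.3 and 44.0 TPM in KO (-0.52 ± 0.08, adjusted p = 0.00669). Kpna3 was at 60.2, 58.0 and 60.7 TPM in WT and at 41.8 and 34.0 TPM in KO (-0.63 ± 0.11, adjusted p = 0.00937). Kpna1 fell by 0.33 (adjusted p = 0.0234), and Kpna6, at 36.2, 36.7 and 37.0 TPM in WT and 34.0 and 33.1 TPM in KO, had a log2 change of -0.11 with an interval of -0.26 to 0.05. Kpna3 missed the threshold without WT1 (0.0522, range over all alternatives 2.34e-05 to 0.0566), and Kpna1 without WT1, WT2 or WT3 (0.101, 0.0961 and 0.0761, range 0.000664 to 0.146). Because Kpna2 made up most of the adaptor RNA, the summed TPM of the 6 adaptors in KO was 45.9% of WT, the lowest share of any role.

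Importin beta receptors carry cargo inward either through an adaptor or directly, and 6 of 9 fell. Kpnb1, which carries importin alpha with its cargo (chromosome 11, 97159710 to 97187892), was at 238, 230 and 241 TPM in WT and at 148 and 147 TPM in KO (-0.65 ± 0.08, adjusted p = 0.00463). Tnpo1, which imports RNA-binding proteins such as hnRNPs, was at 48.8, 47.4 and 49.8 TPM in WT and at 28.8 and 27.1 TPM in KO (-0.73 ± 0.07, adjusted p = 0.0031). Ipo11 was at 25.2, 24.5 and 25.9 TPM in WT and at 15.1 and 16.5 TPM in KO (-0.65 ± 0.08, adjusted p = 0.00413). In each of these 3 genes both KO libraries lay close together and well below WT, and their calls held with any library left out. Ipo9, an importer of core histones, fell by 0.79, and Ipo5 and Ipo7, which import ribosomal proteins and histones, fell by 0.71 and 0.60. Ipo5 missed the threshold without WT1 or WT3 (0.0564 and 0.0535, range over all alternatives 4.15e-06 to 0.077). Ipo7 missed it without WT1, WT2 or WT3 (0.0631, 0.0507 and 0.0567, range 3.34e-05 to 0.0873).

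The other 3 beta receptors did not pass. Ipo13, which also works as an exporter, had the highest log2 change among the receptors and was at 36.2, 34.9 and 35.0 TPM in WT and at 36.0 and 41.8 TPM in KO. Its groups overlapped, and its log2 change was 0.16 with an interval of -0.05 to 0.38. Ipo8 and Ipo4 had log2 changes of -0.26 and -0.24, with intervals of -0.52 to -0.01 and -0.64 to 0.15. For these 3 genes 1 KO library decided the call. Ipo13 passed as higher (0.00634) and Ipo8 as lower (0.00328) without KO1, and Ipo4 passed as lower (0.000383) without KO2. Their adjusted p over all alternatives reached 0.493, 0.336 and 0.77.

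Among exportins, which bind cargo together with Ran-GTP in the nucleus, 5 of 6 fell, with a median log2 change of -0.73. Cse1l, the exportin that returns importin alpha to the cytoplasm (chromosome 2, 166898431 to 166946389), was at 118, 113 and 114 TPM in WT and at 59.1 and 50.4 TPM in KO (-1.05 ± 0.10, adjusted p = 0.00266). Xpo4 was at 15.2, 15.1 and 15.6 TPM in WT and at 5.67 and 7.24 TPM in KO (-1.16 ± 0.11, adjusted p = 0.00303). Xpo1, the exporter of leucine-rich signals that leptomycin B blocks, was at 79.5, 69.6 and 69.8 TPM in WT and at 41.5 and 38.6 TPM in KO (-0.84 ± 0.10, adjusted p = 0.00385). Groups did not overlap for any of these 3, and the 3 calls held with any library left out. Xpo5, which exports microRNA precursors, and Xpo7 fell by 0.61 and 0.30. Xpo5 missed the threshold without WT1, WT2 or WT3 (0.0651, 0.0596 and 0.0621, range over all alternatives 1.56e-05 to 0.0736), as did Xpo7 (0.086, 0.0748 and 0.0805, range 0.00109 to 0.197). Xpo6, the exporter of actin, had KO1 below and KO2 above all WT libraries. It was at 67.7, 64.5 and 64.8 TPM in WT and at 62.0 and 71.2 TPM in KO. Its log2 change was 0.00 with an interval of -0.22 to 0.22, and its sign differed between fits.

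**Figure D4:**
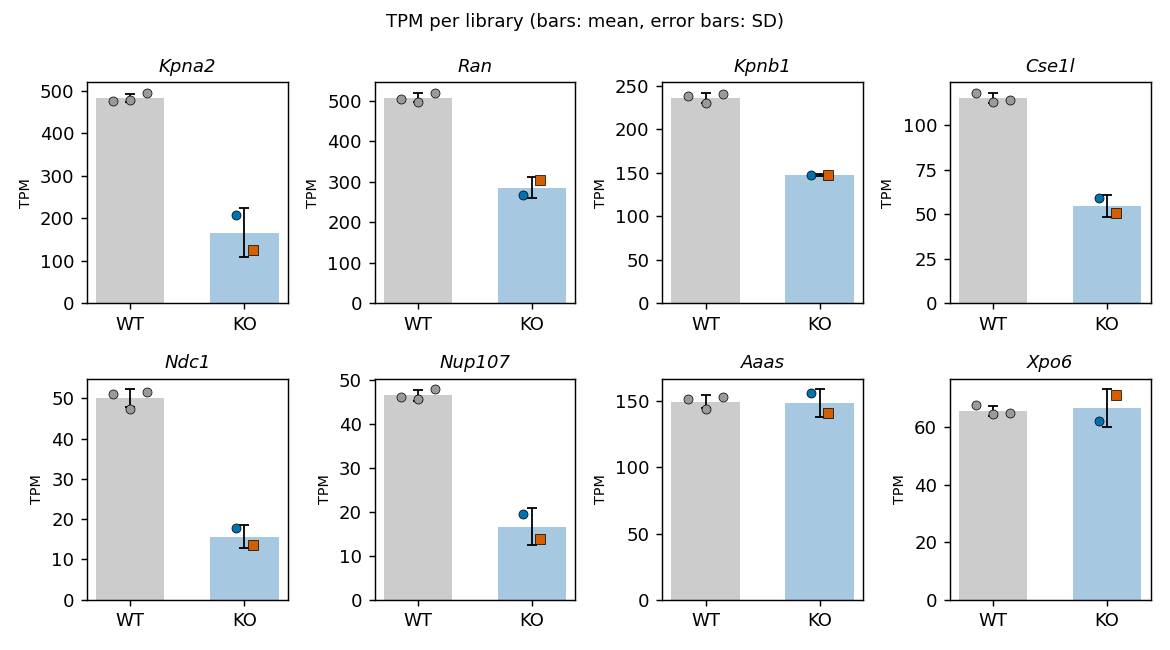
TPM (y axis, from 0) of 8 members in the WT and KO libraries. Bars are means, error bars SD (n = 3 and 2) and points single libraries, with KO2 as a square. Kpna2, Ran, Kpnb1, Cse1l, Ndc1 and Nup107 are lower in both KO libraries. The KO points of Aaas and Xpo6 lie on both sides of the WT points.

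The 1 member that rose, Nup210l, is a paralog of Nup210 known from testis and was near the limit of detection here. It was at 0.32, 0.30 and 0.42 TPM in WT and at 0.65 and 1.18 TPM in KO. Its KO libraries lay above all WT libraries, and its log2 change of 1.04 ± 0.31 was the one just inside the threshold (adjusted p = 0.0457). It did not pass in 9 of 14 alternatives, those without WT1, WT2, WT3 or KO2 among them (0.147, 0.143, 0.0716 and 0.0921, range over all alternatives 0.00703 to 0.147).

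Some member counts include reads that could belong elsewhere. For 18 members at least 1 library held an expected count that was not whole, which means that reads were shared with another gene or transcript location, and 13 members overlap another gene of the table on the genome. Those with shared reads include Kpna2, Ran, Nup62, Nup98, Nup133, Nup160, Tnpo1, Xpo1 and Xpo4. The counts of Nup107, Ndc1, Kpnb1 and Cse1l were whole in all libraries. A count that is not whole does not tell how many reads were shared. For Xpo1 the only such count was 3588.99, in WT2. The sources used here do not say whether counting used strand.

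The KO libraries had similar medians over the members. The median difference from the WT mean in log2(CPM + 0.5) was -0.65 in KO1 and -0.58 in KO2, beside -0.01 and 0.01 over all tested genes, and 24 of 51 members were lower in KO2 than in KO1. The median gap between the KO libraries was 0.21 for members and 0.27 for all tested genes. For the 25 proliferation markers the KO libraries stood further apart. Of these 19 (76%) fell, beside 20.4% of all tested genes, and 6 did not pass. Their median differences were -1.20 in KO1 and -2.67 in KO2, and all 25 were lower in KO2 than in KO1. Without WT1, WT2 or WT3, 9 of them fell in each case, beside 7.6%, 8.94% and 8.77% of all tested genes. Their summed TPM was 2693 to 2915 in WT, 1141 in KO1 and 545 in KO2. The part of these markers in the members' change was not tested.

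**Figure D5:**
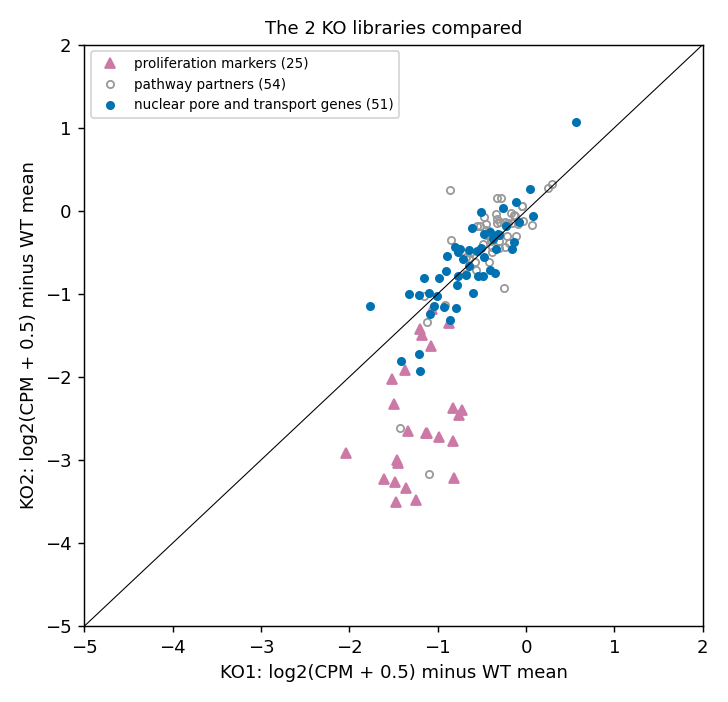
Difference from the WT mean in log2(CPM + 0.5) for KO1 (x axis) and KO2 (y axis), for 51 members (blue), 54 pathway partners (open circles) and 25 proliferation markers (triangles), with the line of equal values. The members lie on both sides of the line, with 24 of 51 lower in KO2, while all 25 proliferation markers lie below it.

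Genes that work with the pore but lie outside the symbol rule fell in a smaller share. Of 56 such partners, 54 were tested: 25 (46.3%) fell, 2 rose and 27 did not pass, with a median log2 change of -0.32. Among all tested genes 20.4% fell and 20.4% rose, and 26.1% of those with a mean of at least 10 TPM fell. Of 14 tested partners of Ran and its receptors 5 fell (35.7%) and 1 rose. Pore partners such as SUMO and torsin genes fell in 12 of 22 (54.5%). Messenger RNA export genes fell in 8 of 18 tested (44.4%), and 1 rose. Leaving out WT1, WT2 or WT3 gave 10, 13 and 9 partners that fell, beside 7.6%, 8.94% and 8.77% of all tested genes.

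Ranbp1, a cytoplasmic cofactor of Rangap1, had the smallest p of the Ran partners, at 800, 795 and 849 TPM in WT and at 360 and 392 TPM in KO (-1.10 ± 0.08, adjusted p = 0.00209). In messenger RNA export, the helicase gene Ddx39a was at 163, 152 and 170 TPM in WT and at 72.4 and 61.5 TPM in KO (-1.24 ± 0.10, adjusted p = 0.0023). The adaptor gene Alyref was at 149, 144 and 157 TPM in WT and at 77.3 and 67.3 TPM in KO (-1.03 ± 0.09, adjusted p = 0.00263). These 3 fell by over 2-fold with no overlap. The cap-binding gene Ncbp1 was at 90.9, 86.5 and 88.3 TPM in WT and at 56.0 and 58.9 TPM in KO. The SUMO protease gene Senp1 was at 23.7, 24.1 and 23.2 TPM in WT and at 14.5 and 15.8 TPM in KO. Sumo2, a small modifier gene, was at 496, 468 and 467 TPM in WT and at 315 and 288 TPM in KO. Ncbp1, Senp1 and Sumo2 fell by 0.61, 0.62 and 0.64 on the log2 scale (adjusted p = 0.00389, 0.00397 and 0.00481). The 6 calls held with any library left out. The import receptor Tnpo2, paralog of Tnpo1, was the other way, at 63.1, 59.8 and 66.5 TPM in WT and at 74.5 and 75.8 TPM in KO (0.27 ± 0.08, adjusted p = 0.042). Zc3h11a, an export factor gene, was at 82.7, 77.7 and 77.3 TPM in WT and at 95.7 and 97.8 TPM in KO (0.31 ± 0.07, adjusted p = 0.0239). Both were above all WT libraries in KO, and both missed the threshold without WT1, WT2 or WT3 (0.154, 0.16 and 0.0916 for Tnpo2, range over all alternatives 0.00902 to 0.246, and 0.0825, 0.113 and 0.109 for Zc3h11a, range 0.00227 to 0.245).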

How the data were processed

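RSEM 1.3.1 and the build GRCm38.p6 are named in the submitters' processing notes, and the authors deposited expected counts, which RSEM splits among genes that share reads. Aligner and strand use were not given in the sources used here. Levels are in TPM as the authors deposited them, and the 5 deposited FPKM columns were not used. Groups came from sample titles, and 0 columns lay outside the labels.

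Expected counts were rounded to whole numbers. The test was that of edgeR 4.0.16 in R 4.3.3, with filterByExpr by group, TMM factors (0.988 to 1.02), no covariate, and the two-sided quasi-likelihood test with Benjamini-Hochberg adjustment over all tested genes at 0.05. Standard errors came from the test statistic, and intervals are 95%. Differences per library are on log2(CPM + 0.5) against the WT mean. Depth was near equal across libraries and limits precision most for scarce genes such as Nup210 and Nup210l. The procedure was also run on simulated counts in which both groups had the same small spread, near that of WT (5.22%). The larger spread of KO (28.8%) was not simulated, so that run cannot tell how the calls behave at it.

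The members, by a symbol rule, and the lists were chosen with earlier results of these data known. Per library values are given for the 3 members of each role with the smallest p in each direction among those past the threshold, the most abundant of each role, the 5 with the largest fall or rise, and those on each side of the threshold. Partner lists name the 2 with the smallest p in each direction. The symbols Nup37, Nup43, Nup93, Seh1l, Rae1, Kpna1, Ipo4, Ipo5, Ipo7, Ipo8, Ipo9, Xpo5 and Xpo7 complete the account by role.

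Alternatives were each library left out, DESeq2 1.42.0, limma 3.58.1 (voom, a separate spread per group, and log2(TPM + 1) or log2(TPM + 0.1), the first also with a mean of at least 1 TPM), DESeq2 size factors, total count scaling, no count filter, a stricter one (a group mean of 10 and an overall mean of 50 counts) and a replicate block. Promoters came from RefSeq windows. Protein sequences were not analysed here.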

Additional observations from a re-analysis of the deposited data

How the results depend on the processing

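The median log2 change of the members stayed between -0.65 and -0.60 in every alternative, and Angptl4 kept its direction and call, at -2.74 to -1.78. The count of members that fell was 25 to 45 with 1 library left out, 18 with the replicate block, and 36 to 42 in the other alternatives. The 18 are Cse1l, Ipo9, Kpna2, Ndc1, Nup107, Nup133, Nup155, Nup160, Nup35, Nup37, Nup43, Nup54, Nup62, Nup85, Rcc1, Tnpo1, Xpo1 and Xpo4, which fell in every alternative. WT and KO share replicate numbers 1 and 2 only. Deviations of same-numbered libraries correlated at 0.013 and 0.11 across genes, and those of the other pairs at -0.11 to 0.086. With 2 KO libraries their deviations mirror each other, so these values cannot decide on a pairing. The labels tie no numbers to a shared mouse or batch, so the pairing by number was not used. With that block 794 of the 12957 tested genes fell.

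The count of members that rose, 1 as reported, was 0 in the TPM alternatives, with separate spreads, without a count filter, with the stricter filter and with the replicate block, and 0 to 2 with 1 library left out. The count of partners that fell, 25 as reported, was 6 with the replicate block and 9 to 37 with 1 library left out. The count of partners that rose, 2 as reported, was 3 with DESeq2, 0 with separate spreads, 0 with the replicate block and 0 to 4 with 1 library left out. The sign turned in at least 1 alternative for 3 of the 51 tested members, Aaas, Xpo6 and Rae1. Aaas, 0.01 as reported, was -0.01 in the TPM alternatives, 0.00 without a count filter, and -0.07 to 0.09 with 1 library left out. Xpo6 was 0.00 with DESeq2, both voom settings and the replicate block, -0.01 without a count filter, and -0.10 to 0.10 with 1 library left out. Rae1, -0.11 as reported, was 0.02 without KO1 and -0.25 to 0.02 over the libraries left out. The cause of these changes was not tested.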
